A study of Mus musculus with 6 samples.

Results

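Potassium channel genes were followed in sorted somatostatin-lineage interneurons of the embryonic mouse cortex with and without Dnmt1. Members were all genes whose symbol begins with Kcn, followed by a family letter or letters and a number, which gave 93 of the 57132 genes listed. They fall into 5 classes by symbol: 40 voltage-gated (Kv) genes, 15 inward rectifiers (Kir), 14 background channels of the K2P type, 8 calcium-activated channels and their relatives, and 16 auxiliary subunits. The rule used the symbol alone and no measured value. RNA levels of these genes are given, and no current or protein was measured.

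The cells were sorted for tdTomato fluorescence from cortices collected at E14.5 (embryonic day), and their total RNA was sequenced. Control cells were Sst-Cre/tdTomato, and Dnmt1 KO cells carried in addition loxP-flanked Dnmt1 alleles (Sst-Cre/tdTomato/Dnmt1 loxP2), with 3 libraries per genotype. In both groups Cre was driven from the Sst locus, so recombination and the red reporter mark every cell that has expressed Sst, in any region from which cells reached the cortical dissection. RNA was isolated from cells pooled per genotype over several embryos, whose sex was not distinguished, and the libraries of a genotype may share a pool. The p-values therefore measure the spread between libraries, which may be technical.

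Potassium channels set the resting potential of a neuron, end its action potentials and pace its firing. Kv channels open on depolarization, Kir channels hold the membrane near rest, K2P channels carry a background leak, and calcium-activated channels couple firing to calcium entry. Auxiliary subunits change how the pore-forming subunits open or reach the surface. In the embryo many neurons are still immature in their firing, and several of these channels are known for roles in migration and differentiation. DNMT1 copies methylation of the CG dinucleotide onto new DNA strands, and promoters differ widely in how many CG they hold.

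The targeted gene was lower in the Dnmt1 KO on the deposited scale, not on every scale, and far from absent. Dnmt1 was at 3025, 2539 and 2741 normalized counts in control replicates 1, 2 and 3 and at 2411, 2243 and 2255 in Dnmt1 KO replicates 1, 2 and 3. A normalized count is the read count of a gene divided by a size factor of its library. All Dnmt1 KO values lay below all control values (log2 fold change −0.26 ± 0.07 SE, adjusted p = 0.0218, limma over all tested genes). The adjusted p was 0.0574 to 0.0926 without control replicate 1, Dnmt1 KO replicate 2 or Dnmt1 KO replicate 3. Scaled by total reads, Dnmt1 took 0.0342%, 0.0284% and 0.0299% of the reads in control and 0.0319%, 0.0300% and 0.0302% in Dnmt1 KO, where the groups overlapped and the fold change was near 0 (log2 −0.0039, adjusted p = 0.972). With quantile normalization it did not pass either (log2 −0.15, adjusted p = 0.0901). Counts per gene do not show whether the deleted exons were among the reads. Sst was at 2978 ± 112 in control and 3284 ± 153 in Dnmt1 KO (SD, n = 3 each; adjusted p = 0.134).

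Of the 93 members, 51 had a mean of at least 10 normalized counts over the 6 libraries and were tested. The other 42 had means of at most 9.45, and 8 of them had no read in any library. These 8 were Kcna7, Kcna10, Kcne1, Kcnn4, Kcnk7, Kcnk15, Kcnk16 and Kcnk18. For a gene with 0 reads, 3 reads remain possible, which is 2.22 to 3.70 normalized counts depending on the library and covers counting error only. All members together took 5329 to 8162 reads per library, 0.0622% to 0.0830% of all reads, so most members rest on few reads.

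Per kilobase of exon, the mean over all 6 libraries was 75.3 normalized counts for Kcnk2, 47.9 for Kcnd3 and 37.6 for Kcna3. Kcnk2 is a mechanosensitive and lipid-sensitive leak channel, Kcnd3 an A-type Kv channel and Kcna3 a delayed rectifier of the Kv1 family. Of the genes described here, the next on this scale were Kcnip1 (28.3), Kcnc1 (27.5) and Kcnmb2 (26.1). Kcnip1, which encodes a Kv4 partner, stood at 27.8 ± 4.02 in control and 28.8 ± 4.53 in Dnmt1 KO, and Kcnmb2, a BK beta subunit, at 18.6 ± 1.89 and 33.6 ± 5.58 (SD, n = 3), so these neighbours were within their spread of each other in Dnmt1 KO but not in control. Kcnk2 itself was at 56.3 ± 4.04 per kilobase in control and 94.3 ± 14.3 in Dnmt1 KO, above Kcnd3 (42.5 ± 6.35 and 53.3 ± 2.00) in both groups.

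**Figure D1:**
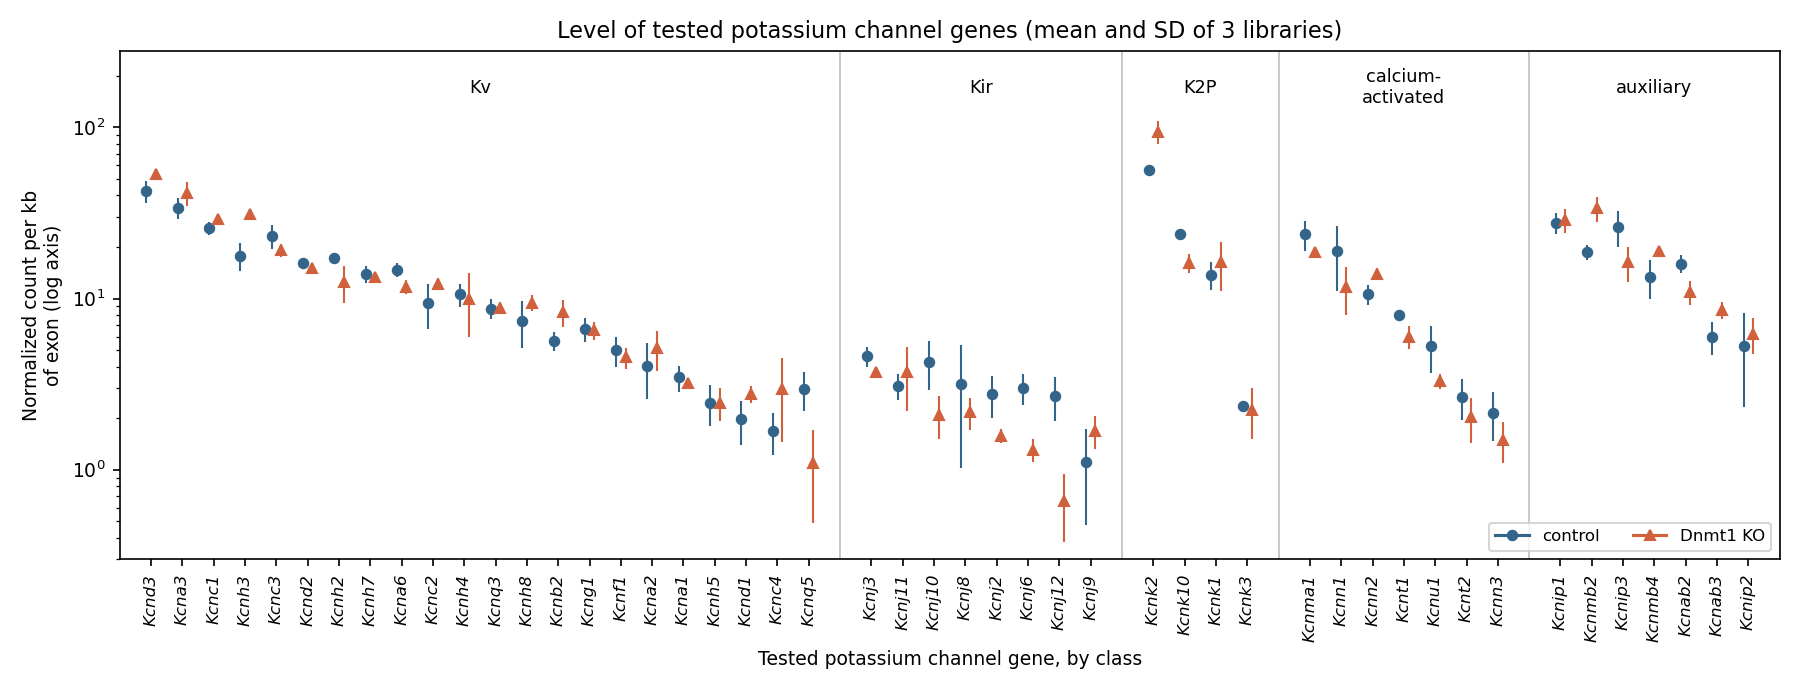
Level of 48 tested potassium channel genes, as normalized counts per kilobase of exon on a log axis, ordered within each class by the mean over both groups. Circles (control) and triangles (Dnmt1 KO) are means of 3 libraries and bars are SD; Kcnk2 is the highest gene shown and all Kir genes lie under 5.

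Between the genotypes, 11 of the 51 tested members passed the test, 5 higher and 6 lower in Dnmt1 KO. That share of 21.6% is close to the 19.2% of all 14126 tested genes that passed in either direction (17.3% of protein-coding genes). By direction, 7.64% of all tested genes were higher and 11.6% lower. Over the members the median log2 fold change was −0.05, beside 0.02 over all tested genes. The 3 values of each group did not overlap in 23 members (45.1%), beside 36.7% of all tested genes. In a bulk sample, a lower level can come from fewer cells of a type or from less RNA per cell. A higher level can come from more cells of a type or from more RNA per cell. In neither case can these be told apart.

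Counts of calls moved with single libraries and with the scaling. The 5 higher calls became 3 without Dnmt1 KO replicate 2 and 3 without Dnmt1 KO replicate 3. Over the whole table the higher genes fell as well, from 1079 to 569 and 531. The 6 lower calls became 1 without control replicate 1, where only Kcnk10 remained, and 3 without Dnmt1 KO replicate 1. Lower genes over the whole table went from 1638 to 1431 and 1457 in these fits. Scaling by total reads in place of the deposited size factors raised the median log2 fold change of all tested genes from 0.02 to 0.27 and that of the members from −0.05 to 0.21. It gave 11 higher and 3 lower members, but also 5046 higher and 1062 lower genes over the whole table (43.2%). Kcnk10 (adjusted p = 0.0585), Kcnip3 (0.132) and Kcnab2 (0.146) did not pass on that scale. Quantile normalization gave 8 higher and 2 lower members, without Kcnj6 (0.0525), Kcnj12 (0.0681), Kcnip3 (0.0745) and Kcnq5 (0.0924). Over the whole table it gave 1452 higher and 1369 lower genes (20%). Kcnk2, Kcnh3 and Kcnmb2, all higher in Dnmt1 KO, passed under all 17 alternatives.

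**Figure D2:**
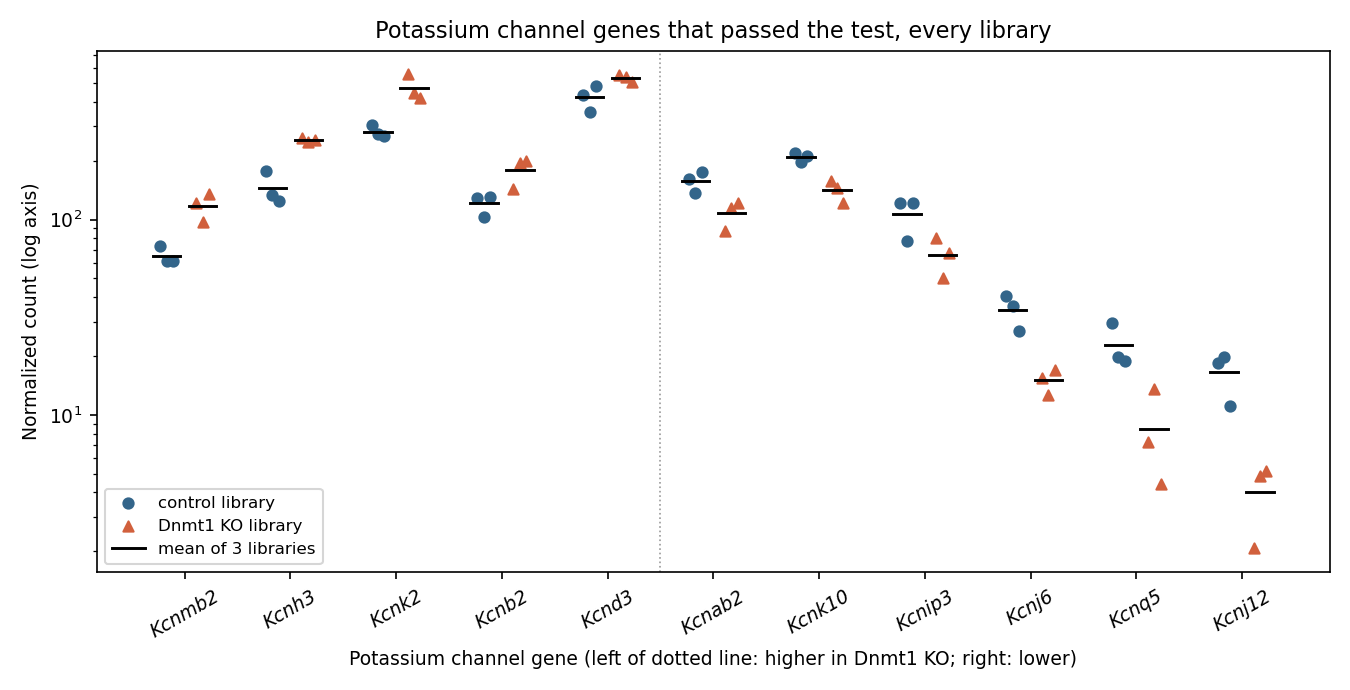
Normalized counts of the 11 members that passed the test, on a log axis, with 1 symbol per library (circles control, triangles Dnmt1 KO) and a bar at the mean of each group's 3 libraries. Only in Kcnip3 do the symbols of the groups overlap; Kcnj12 and Kcnq5 are the lowest genes shown.

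Among K2P channels the 2 tested genes of the TREK type moved in opposite directions. Kcnk2 had 305, 273 and 267 normalized counts in control and 554, 446 and 418 in Dnmt1 KO. The lowest Dnmt1 KO library was thus well above the highest control library (282 ± 20.2 against 473 ± 71.4; log2 fold change 0.74 ± 0.11 SE, adjusted p = 0.000461). Kcnk10, which encodes a close relative that is opened by the same kinds of stimuli, had 220, 198 and 212 in control and 157, 145 and 122 in Dnmt1 KO. Here every Dnmt1 KO library was below every control library (210 ± 11.2 against 141 ± 17.7; log2 −0.57 ± 0.12, adjusted p = 0.00623). Per kilobase, the ratio of Kcnk2 to Kcnk10 was 2.43, 2.42 and 2.21 in control and 6.18, 5.38 and 6.00 in Dnmt1 KO. The ratio restates the values above and is not a separate test. Both calls held without any 1 library. A430027H14Rik, a gene on the other strand that overlaps Kcnk2 and was looked up after the calls, was at 8.64, 22.7 and 14.48 in control and 25.8, 33.9 and 53.3 in Dnmt1 KO. The kit keeps strand, but the strand setting of the counting is not stated, and without it reads of overlapping genes cannot be told apart.

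The other tested K2P genes did not pass. Kcnk1 was at 39.5, 27.4 and 37.9 in control and 54.7, 40.6 and 28.1 in Dnmt1 KO, with groups that overlapped and an unadjusted 95% interval of the fold change of −0.41 to 0.80 on the log2 scale. Its sign turned without Dnmt1 KO replicate 1 (log2 −0.028). The remaining 10 of 14 K2P genes were under the minimum, 4 of them with no read.

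The sequences just before the starts of Kcnk2 and Kcnk10 are shown because these close relatives differ in how many CG, the dinucleotide that DNMT1 methylates, they hold. Each is the 250 bases upstream of the start of the canonical transcript in GENCODE M39, on GRCm39 and the minus strand, with every CG in capitals (chr1:189076057-189076306 for Kcnk2, which lies within the annotated gene body, and chr12:98544570-98544819 for Kcnk10).
Kcnk2: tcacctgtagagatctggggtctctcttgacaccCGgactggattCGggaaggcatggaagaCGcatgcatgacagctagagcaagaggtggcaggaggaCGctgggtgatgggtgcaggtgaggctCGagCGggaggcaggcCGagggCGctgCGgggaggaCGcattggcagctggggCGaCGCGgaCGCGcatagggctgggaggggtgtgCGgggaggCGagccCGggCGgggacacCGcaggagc
Kcnk10: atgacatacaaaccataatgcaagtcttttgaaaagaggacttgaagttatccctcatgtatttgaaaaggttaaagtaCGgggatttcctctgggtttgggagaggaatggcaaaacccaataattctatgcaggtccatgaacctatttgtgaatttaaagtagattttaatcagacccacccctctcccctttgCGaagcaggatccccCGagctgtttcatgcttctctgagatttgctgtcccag
The Kcnk2 stretch held 20 CG and the Kcnk10 stretch 3. CG reads the same on both strands, and 99.1% of the 11990 stretches of the same length before tested protein-coding genes held at least 1, with a median of 13. The 6 lower members held from 3 to 29 CG and the 5 higher members from 4 to 20, so the ranges overlapped. Methylation was not analysed here, and a count of CG does not say whether a site was methylated.

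Of the 25 tested Kv genes, 3 were higher and 1 was lower (16% in all, beside 19.2% of all tested genes). Kcnh3, a neuronal channel of the ether-a-go-go superfamily, had 177, 134 and 125 normalized counts in control and 262, 250 and 256 in Dnmt1 KO. All Dnmt1 KO libraries were above all control libraries and close to one another (145 ± 27.6 against 256 ± 6.32; log2 0.83 ± 0.13, adjusted p = 0.000736). The call held without any 1 library, where the fold change ranged from 0.73 to 0.98. Mcrs1, which overlaps Kcnh3 on the other strand, had 298 to 328 normalized counts in control and 301 to 321 in Dnmt1 KO.

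Kcnb2 encodes a delayed rectifier of the Kv2 family. It was at 130, 103 and 130 in control and at 143, 194.5 and 199 in Dnmt1 KO, so that the groups did not overlap but Dnmt1 KO replicate 1 was near the control libraries (log2 0.55 ± 0.16, adjusted p = 0.026). The adjusted p was 0.0814 without control replicate 2, 0.111 without Dnmt1 KO replicate 2 and 0.123 without Dnmt1 KO replicate 3.

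Kcnd3 carries the A-type current, which opens below threshold and delays firing. It had 432, 356 and 481 normalized counts in control and 547, 536 and 509 in Dnmt1 KO, a difference of 0.34 ± 0.10 on the log2 scale (adjusted p = 0.0393). The groups did not overlap, but control replicate 3 was close to the lowest Dnmt1 KO library. Without control replicate 1, control replicate 2, or any 1 of the Dnmt1 KO libraries, the adjusted p was 0.0521 to 0.126, and DESeq2 gave 0.054. The start of Kcnd3 overlaps Kcnd3os on the other strand, which had 0 to 1 read in control and 2 to 5 reads in Dnmt1 KO. The other A-type gene above 50 normalized counts, Kcnd2, also named after its values were seen, was at 93.4 ± 6.94 and 87.6 ± 3.95 (log2 −0.09, interval −0.41 to 0.23).

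Kcnq5, a pore-forming subunit of the Kv7 channels that carry the M-current, a slow brake on repetitive firing, was the lower Kv gene. It was at 29.6, 19.9 and 18.9 in control and at 7.23, 13.5 and 4.44 in Dnmt1 KO, with no overlap (log2 −1.43 ± 0.43, adjusted p = 0.0347). It had few reads, and the adjusted p was 0.0569 to 0.127 when control replicate 1, 2 or 3, Dnmt1 KO replicate 1 or Dnmt1 KO replicate 3 was left out, and 0.051 by DESeq2. Kcnq3 of the same family, named after its values were seen, was at 128 ± 17.0 and 130 ± 9.79 and did not pass (log2 0.02, interval −0.28 to 0.33).

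Kcna3 did not pass, with 59.3, 74.7 and 59.0 normalized counts in control and 81.6, 64.8 and 89.6 in Dnmt1 KO. The groups overlapped, and the interval was −0.13 to 0.69. No tested gene of the Kv1 or Kv3 families or of the silent Kv subunits, which join Kv2 channels and are silent alone, passed with limma, edgeR or DESeq2, and 0 had an unadjusted p under 0.05 in the limma fit. With scaling by total reads Kcna3 passed as higher, as did Kcnc1 and Kcnc2 of the Kv3 family.

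**Figure D3:**
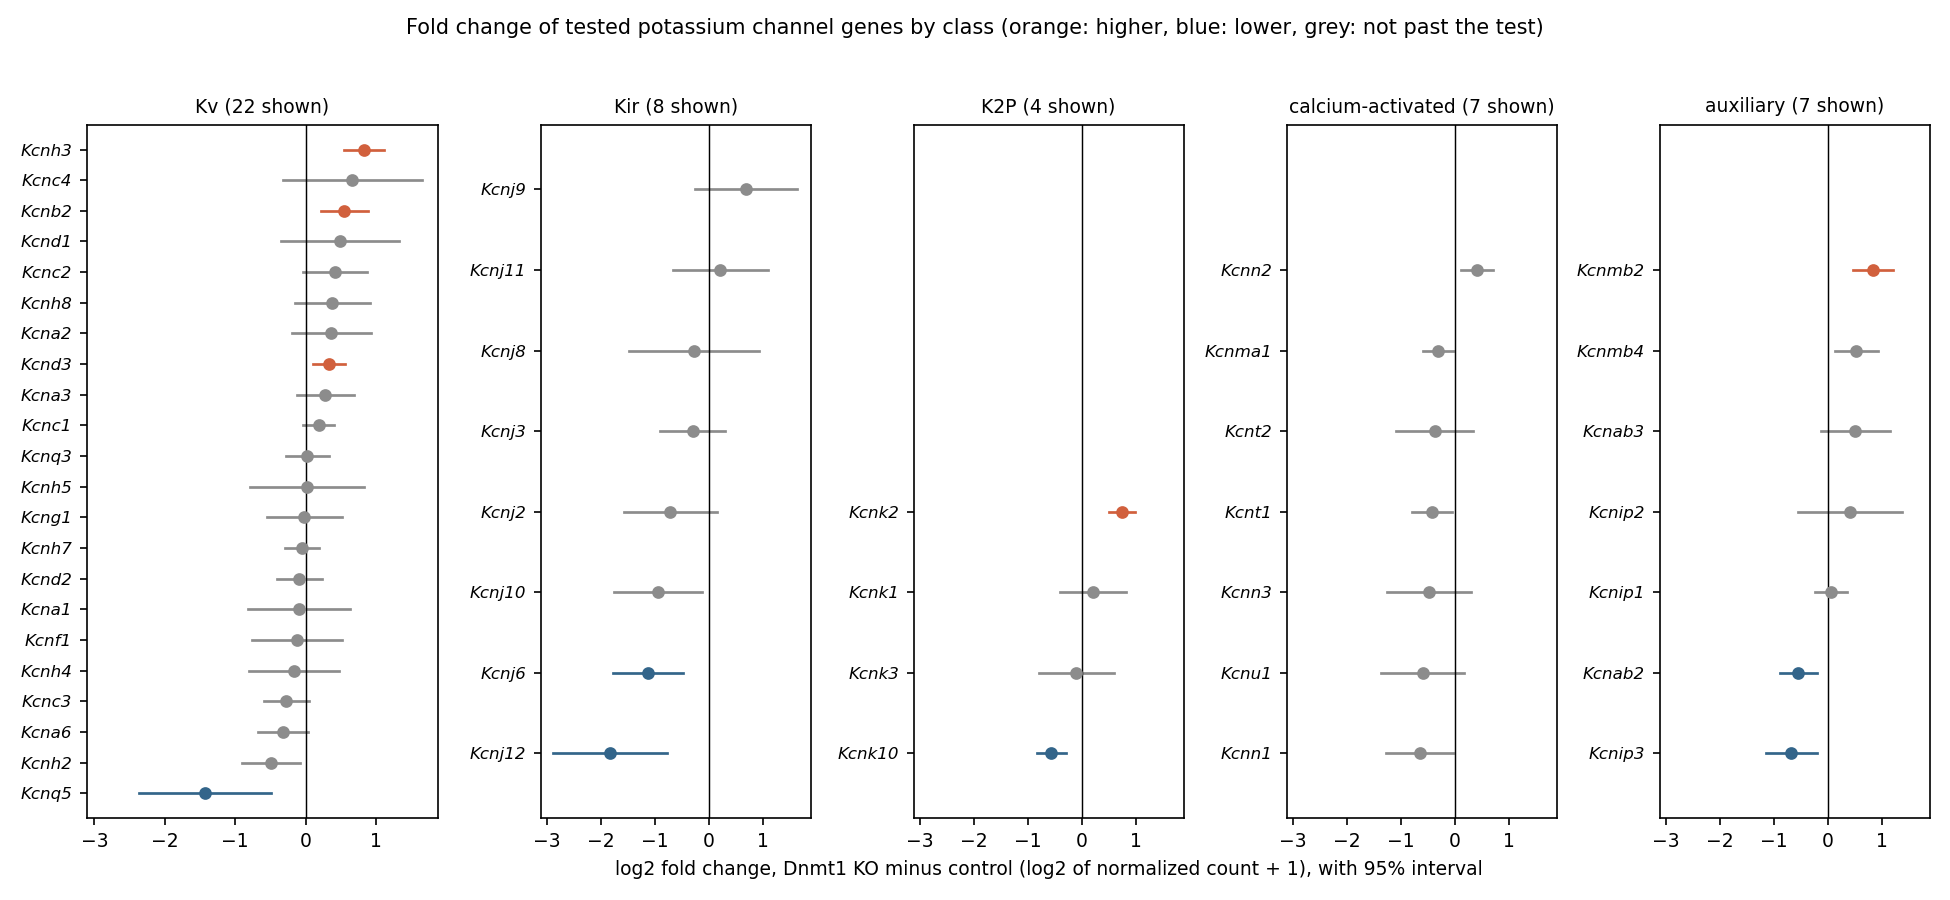
Log2 fold change (Dnmt1 KO minus control) of 48 tested members in 5 panels by class, with the unadjusted 95% interval of each as a line. Orange and blue mark the 5 higher and 6 lower members that passed the adjusted test; grey members did not, although some of their intervals exclude 0.

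Inward rectifiers had low RNA levels, none above 5 normalized counts per kilobase in either group. Of 8 tested Kir genes, 2 were lower and none was higher with limma, edgeR or DESeq2. That is 25%, beside 11.6% of all tested genes that were lower and 19.2% that passed in either direction with limma. At an unadjusted p under 0.05 there were 3, all of them lower, but the share of all tested genes at that threshold was not counted. The sum over all 15 Kir genes was 174, 165 and 167 normalized counts in control and 114, 97.7 and 114 in Dnmt1 KO, with no overlap. The median log2 fold change of the tested ones was −0.51.

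Kcnj6 encodes GIRK2, a G-protein-gated subunit through which inhibitory transmitters hyperpolarize neurons. It had 40.7, 35.9 and 26.7 normalized counts in control and 15.5, 12.6 and 17.0 in Dnmt1 KO, and every Dnmt1 KO library was below every control library (log2 −1.14 ± 0.30, adjusted p = 0.0182). Its partner subunit Kcnj3 was at 24.7, 23.7 and 30.1 in control and 20.7, 22.3 and 20.0 in Dnmt1 KO, a change that did not pass (log2 −0.30, interval −0.90 to 0.30). Per kilobase, the ratio of Kcnj6 to Kcnj3, which restates these values, was 0.666 ± 0.200 in control and 0.356 ± 0.0715 in Dnmt1 KO. Kcnj6 missed the threshold without control replicate 1 (adjusted p = 0.0642), control replicate 2 (0.0552) or Dnmt1 KO replicate 2 (0.0632).

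Kcnj12, a strong inward rectifier, was the tested member with the lowest log2 fold change. It was at 18.5, 19.9 and 11.1 in control and at 2.07, 4.84 and 5.18 in Dnmt1 KO (log2 −1.83 ± 0.49, adjusted p = 0.0198). These are 15, 21 and 10 reads against 2, 5 and 7 reads, so the size of the change is poorly fixed (interval −2.88 to −0.77). Without Dnmt1 KO replicate 1 the adjusted p was 0.0579, and without control replicate 1 or control replicate 2 the gene fell under the minimum for testing.

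Kcnj10, the inward rectifier of glia and glial precursors, had 23.5, 30.3 and 15.6 normalized counts in control and 11.4, 14.51 and 8.14 in Dnmt1 KO. All Dnmt1 KO values were lower, but the change did not pass (log2 −0.95, interval −1.77 to −0.14, adjusted p = 0.0976). Kcnj11, the pore of ATP-sensitive channels, was at 11.1, 9.46 and 13.4 in control and 11.4, 9.68 and 20.0 in Dnmt1 KO. Its groups overlapped, and its fold change turned from 0.20 to −0.088 without Dnmt1 KO replicate 3.

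None of the 7 tested calcium-activated genes and relatives passed the limma test, beside 19.2% of all tested genes that did. With limma 4 had an unadjusted p under 0.05, and neither edgeR nor DESeq2 called any. The share of all tested genes at that unadjusted threshold was not counted, so the 4 are not a result about this class. Kcnma1, the pore of the large-conductance BK channel, had 457, 309 and 443 normalized counts in control and 330, 319 and 307 in Dnmt1 KO. The groups overlapped through control replicate 2, and the interval of the log2 fold change was −0.60 to −0.03 (adjusted p = 0.113). Without control replicate 2 Kcnma1 passed as lower. Of the small-conductance channels, which follow bursts with a slow hyperpolarization, Kcnn2 was at 122, 133 and 102 in control and 171, 146 and 155 in Dnmt1 KO, without overlap (log2 0.40, interval 0.10 to 0.70, adjusted p = 0.059). It passed as higher without control replicate 2, with scaling by total reads and with quantile normalization. Kcnn1 was at 153, 101 and 65.7 in control and 65.1, 45.5 and 86.6 in Dnmt1 KO, with a wide spread in both groups (log2 −0.66, interval −1.28 to −0.03, adjusted p = 0.135), and it passed as lower without control replicate 3.

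Auxiliary subunits gave 1 higher and 2 lower genes of 7 tested (42.9% in all, beside 19.2% of all tested genes). Kcnmb2, a beta subunit that makes BK channels inactivate, had 72.8, 61.5 and 61.3 normalized counts in control and 121, 96.8 and 135 in Dnmt1 KO. Every Dnmt1 KO library was above every control library (65.2 ± 6.63 against 118 ± 19.5; log2 0.83 ± 0.17, adjusted p = 0.00427), and the call held without any 1 library. The other tested beta subunit, Kcnmb4, named after its values were seen, was at 79.9 ± 20.2 and 113 ± 8.23 (log2 0.52, interval 0.13 to 0.92, adjusted p = 0.0643). Kcnmb4 passed as higher with scaling by total reads (adjusted p = 0.0053), with quantile normalization (0.0499) and without control replicate 1 (0.0111). Per kilobase, the ratio of Kcnmb2 to its pore Kcnma1 was 0.773, 0.964 and 0.670 in control and 1.77, 1.47 and 2.14 in Dnmt1 KO. It restates the values given for these genes and is not a separate test. The per-kilobase scale divides by all annotated exons, 3.505 kb for Kcnmb2 and 16.99 kb for Kcnma1. A ratio of 1 therefore does not mean equal numbers of transcripts. The stretch before Kcnmb2 (chr3:31956406-31956655, plus strand, GRCm39, CG in capitals) is shown as the higher member with the fewest CG, 4.
Kcnmb2: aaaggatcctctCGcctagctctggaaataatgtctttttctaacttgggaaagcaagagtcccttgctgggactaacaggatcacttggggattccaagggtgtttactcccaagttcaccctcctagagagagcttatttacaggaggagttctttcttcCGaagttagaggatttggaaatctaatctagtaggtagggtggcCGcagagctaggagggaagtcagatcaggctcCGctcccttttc

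Kcnab2, a cytoplasmic beta subunit of Kv1 channels, was at 161, 137 and 175 in control and at 87.8, 114 and 121 in Dnmt1 KO. The groups did not overlap (log2 −0.55 ± 0.16, adjusted p = 0.0258), but the adjusted p was 0.0505 to 0.0943 when control replicate 1, control replicate 3, Dnmt1 KO replicate 1 or Dnmt1 KO replicate 2 was left out. Chd5, on the other strand and overlapping Kcnab2, was at 1699 to 1959 in control and 1625 to 1686 in Dnmt1 KO. Kcnip3, which encodes a calcium sensor that binds Kv4 channels and also acts as a transcriptional repressor, was at 121, 77.6 and 121 in control and 80.6, 50.3 and 67.4 in Dnmt1 KO. Its groups overlapped, and it passed narrowly (log2 −0.68 ± 0.22, adjusted p = 0.0469). Without control replicate 1, control replicate 3, Dnmt1 KO replicate 2 or Dnmt1 KO replicate 3 the adjusted p of Kcnip3 was 0.10 to 0.184. Kcnip1, another protein that binds Kv4 channels, was at 300.0, 226 and 285 in control and 243, 329 and 270.2 in Dnmt1 KO, with overlap and an interval of −0.24 to 0.34. Its sign turned without control replicate 2 or Dnmt1 KO replicate 2 (log2 −0.071 and −0.068). None of the 5 genes of the Kcne family reached the minimum.

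A list of 32 genes whose products assemble with, anchor or degrade these channels, together with Hcn channels and potassium carriers, was read in the same fit. Of 28 tested, 3 were higher and 5 were lower (28.6% in all, beside 19.2% of all tested genes), with a median log2 fold change of 0.07. Without Dnmt1 KO replicate 2 these counts were 1 and 3, and without Dnmt1 KO replicate 3 they were 2 and 3. Of all tested genes, 13.1% and 12.5% passed in these fits. The partner counts were 10 and 1 with scaling by total reads, where 43.2% of all tested genes passed.

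Dpp10, an auxiliary subunit of Kv4 channels, had 1050, 955 and 1070 normalized counts in control and 1497, 1334 and 1377 in Dnmt1 KO. All Dnmt1 KO libraries were above all control libraries (log2 0.45 ± 0.07, adjusted p = 0.000729). Dpp6 of the same list, named after its values were seen, had groups that overlapped and did not pass (log2 0.11, adjusted p = 0.306). Atp1b1, a sodium-potassium pump subunit, was at 297 ± 19.6 and 395 ± 30.1 (log2 0.41, adjusted p = 0.00886, and 0.0505 without Dnmt1 KO replicate 2). Vapa, which with Vapb tethers Kv2 channels to the endoplasmic reticulum, was at 426 ± 16.6 and 503 ± 15.3 (adjusted p = 0.0495), and did not pass when any 1 library was left out (0.0524 to 0.156), by DESeq2 (0.147), by limma-voom (0.0567) or with size factors from protein-coding genes (0.0897).

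Among the lower genes were both Adam23 and Adam22, which bind the secreted LGI proteins around Kv1 channels. Adam23 had 236, 206 and 223 normalized counts in control and 150, 137 and 142 in Dnmt1 KO, without overlap (log2 −0.63 ± 0.11, adjusted p = 0.00162). Adam22 changed less (log2 −0.34, adjusted p = 0.0395) and passed in only 1 of the 6 fits that left out a library, the one without control replicate 2 (otherwise 0.0654 to 0.121). Ank3 encodes ankyrin-G, which anchors Kv7 channels at the axon initial segment. It was at 6555, 5062 and 6012 in control and 4560, 3740 and 4319 in Dnmt1 KO (log2 −0.48 ± 0.09, adjusted p = 0.00323). Dlg1, a scaffold of Kv1 and Kir channels, was at 561 ± 49.8 and 413 ± 31.5 (adjusted p = 0.00492). Nedd4l, a ubiquitin ligase that acts on Kv7 channels, was at 2658 ± 320 and 2021 ± 255 (adjusted p = 0.0135, and 0.066 to 0.0738 without Dnmt1 KO replicate 2 or 3). Its groups overlapped, with control replicate 2 at 2308 and Dnmt1 KO replicate 1 at 2312. Scaled by total reads, Ank3 (0.0795), Dlg1 (0.134), Nedd4l (0.277) and Adam22 (0.57) did not pass.

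Kcnq1ot1, a long antisense RNA at the Kcnq1 locus whose symbol lies outside the rule, was at 543, 745 and 540 in control and 696, 578 and 398 in Dnmt1 KO. Its groups overlapped (log2 −0.15, adjusted p = 0.594). Kcnq1 itself was at 1.92 ± 1.55 and 0.74 ± 1.28 and was not tested.

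Markers of other cell types moved with the groups. Of 15 interneuron genes 12 were higher in Dnmt1 KO and none lower, and their sum was 30087 to 32461 in control and 38462 to 39661 in Dnmt1 KO. Of 12 radial glia genes 8 were lower and 1 higher (sum 9565 to 10185 against 6696 to 6966), and of 10 genes of dividing cells 7 were lower (4140 to 4468 against 3006 to 3061). Thalamus and diencephalon markers showed the widest gap, with 7 of 9 tested genes lower and a sum of 2195 to 2364 against 602 to 680. Gbx2 of that list had 0 reads in Dnmt1 KO replicates 1 and 2. Striatal markers also held lower genes (3 of 6 tested, sum 755 to 830 against 344 to 410). So did Cajal-Retzius markers (4 of 8, sum 3032 to 3402 against 3267 to 3327). Most of the Cajal-Retzius sum was Reln (2816 ± 178 in control, 3110 ± 31.9 in Dnmt1 KO). Of the 8 Cajal-Retzius genes, 6 had a fold change below 0 and 2 above (median log2 −1.04). Calb2 is on both the Cajal-Retzius and the thalamus list. Of 10 markers of intermediate progenitors and excitatory neurons 4 were lower and 1 higher (sum 2982 to 3083 against 2794 to 2822), and of 7 tested markers of meninges and mesenchyme 3 were lower (961 to 1102 against 749 to 892). Of 6 markers of oligodendrocyte precursors, a glial list, only Pdgfra was tested, and it was lower (sum 144 to 182 against 63.7 to 103). Olig2 of that list had 13, 22 and 10 reads in control and 0, 3 and 1 in Dnmt1 KO. Pdgfra is also on the list of meninges and mesenchyme, as 1 of its 3 lower genes. Choroid plexus (1 of 3 tested lower; 273 to 330 against 200.3 to 227) and erythroid markers (1 of 6 tested lower; 785 to 831 against 638 to 809) held 1 lower gene each. Most of the choroid plexus sum was Ttr (219 ± 25.6 in control, 132 ± 14.9 in Dnmt1 KO). The other choroid plexus markers went both ways. Clic6, Sostdc1 (3.02 ± 1.67 against 12.1 ± 1.61) and Folr1 had higher means in Dnmt1 KO. Otx2, Aqp1 (7.45 ± 2.19 against 1.06 ± 1.11) and Prlr had lower ones. No tested marker of microglia, endothelium or pericytes passed with limma, edgeR or DESeq2, and 3 endothelial markers had an unadjusted p under 0.05 with limma. No listed marker was at 0 in all 6 libraries. Their part in the levels of the members was not tested. This holds for lower ones, Kcnj10, Kcnj6, Kcnj12 and Kcnk10 among them, and for higher ones, Kcnk2, Kcnh3 and Kcnmb2 among them.

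Across the whole class of members the summed level did not separate the groups in normalized counts (6580, 5559 and 6008 in control; 6279, 6159 and 6042 in Dnmt1 KO). As a share of all reads it did, with 0.0745%, 0.0622% and 0.0655% in control and 0.0830%, 0.0823% and 0.0809% in Dnmt1 KO. The sum thus depends on the scaling, which also sets the split of calls shown in the plot of calls by processing.

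**Figure D4:**
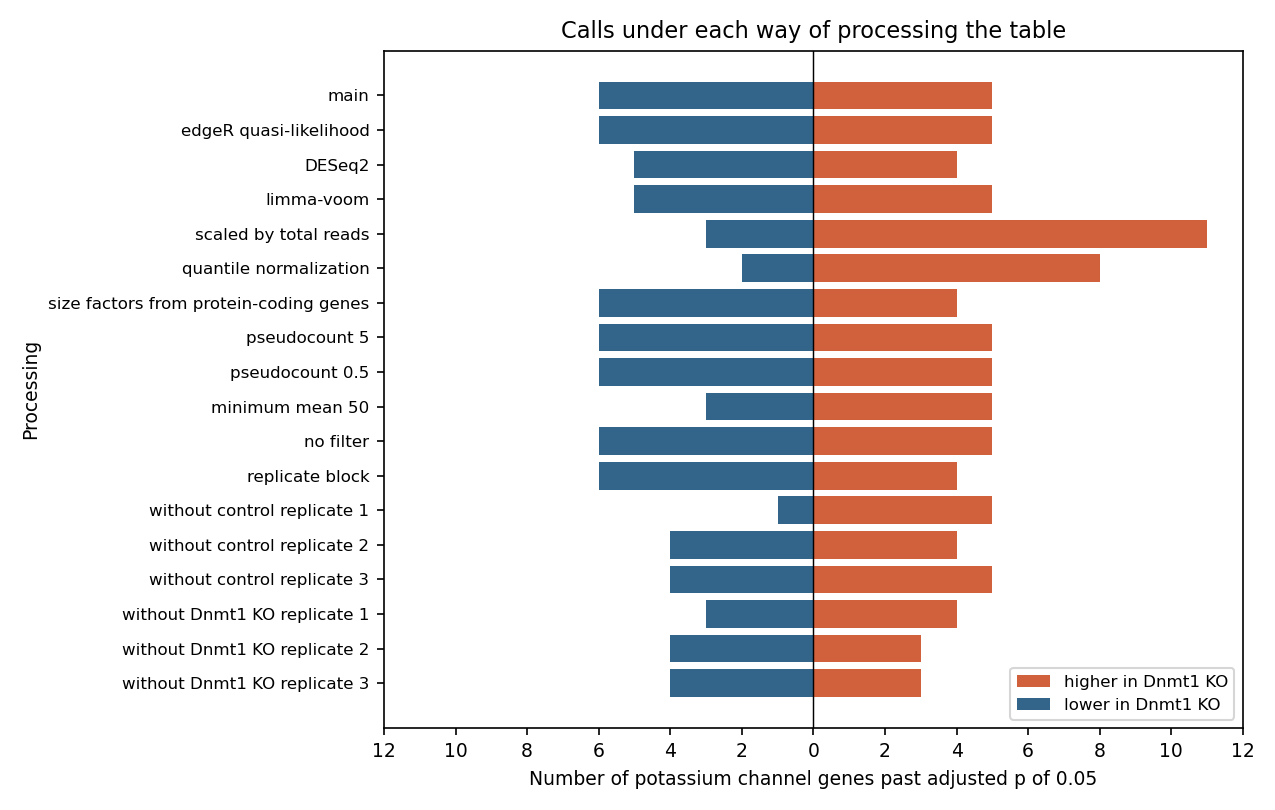
Number of potassium channel genes past an adjusted p of 0.05 (bars right of 0: higher in Dnmt1 KO; left: lower) under the processing used in the text (main, 5 and 6) and each of 17 alternatives. The split was 11 and 3 with scaling by total reads, 8 and 2 with quantile normalization and 5 and 1 without control replicate 1.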

How the data were processed

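Libraries were prepared by the authors with a stranded low-input total RNA kit after ribosomal RNA depletion. The submitters' notes list DESeq2 1.42.1, Salmon 1.10.3, STAR 2.7.11b, Trim Galore 0.6.10 and GRCm39; the study's methods give other versions. The deposited signal is a table of normalized counts, gene counts that the authors divided by 1 size factor per library. Each value was a whole multiple of 1 step per library (100% of values, tolerance 0.001), so reads were recovered (7154043 to 10089981 per library) and used for edgeR 4.0.16, DESeq2 1.42.0 and limma-voom as alternatives only. The deposited tables of the authors' own comparisons (fold changes, p-values, enrichment) were not used.

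Genes with a mean of at least 10 were tested on log2(normalized count + 1) with limma 3.58.1 (R 4.3.3, trend, group as the only term, two-sided, Benjamini-Hochberg over 14126 genes, threshold 0.05). This scale understates changes of low genes. Intervals are unadjusted. The fit was also run on simulated counts with few changed genes and known size factors, which does not test the choice of scaling. Groups and replicate numbers came from sample titles, since the genotype label is the same in all 6. GENCODE M39 (GRCm39), which lacks 0.879% of the listed genes, gave positions, exon lengths and starts. The rule named every called member, the 3 most abundant per kilobase of each class, members past 1 on the log2 scale, called partners, Dnmt1, Sst and Kcnq1ot1. Some genes that the rule names are not reported here. Members and lists were chosen with earlier results of these data known.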

Additional observations from a re-analysis of the deposited data

How the results depend on the processing

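Directions of the 11 called members held under all 17 alternatives in which they could be tested, 6 of which leave out a library. Higher and lower members numbered 11 and 3 with scaling by total reads, 8 and 2 with quantile normalization, and 5 and 3 with a minimum mean of 50, where 28 were tested and Kcnj6, Kcnj12 and Kcnq5 were not. Of all tested genes, 43.2% passed with scaling by total reads, 20% with quantile normalization and 23.6% with a minimum mean of 50. Leaving out 1 library gave 3 to 5 higher and 1 to 4 lower members, and 1 to 3 higher and 3 to 6 lower partner genes. Of all tested genes, 12.5% to 17.8% passed in these fits, beside 19.2% with all libraries. Partner genes numbered 10 and 1 with scaling by total reads, 5 and 5 with quantile normalization, and 5 and 6 with a minimum mean of 50. The causes were not tested, except that fewer genes entered at a minimum of 50. Leaving out 1 library moved Kcnip1 between −0.071 (control replicate 2) and 0.15, with −0.068 for Dnmt1 KO replicate 2, Kcnj11 between −0.088 (Dnmt1 KO replicate 3) and 0.40, and Kcnk1 between −0.028 (Dnmt1 KO replicate 1) and 0.44. Over all tested genes, deviations from the group mean were nearly uncorrelated between libraries of the same replicate number (correlations −0.02, 0.06 and −0.03). This does not show whether such libraries shared a batch. With a replicate block 4 members were higher and 6 lower, with Kcnd3 lost (adjusted p = 0.0505), and 2 partner genes were higher and 5 lower, with Vapa (0.0617) and Adam22 (0.0546) lost and Cntnap2 gained as lower (0.0318). Depth limits the low members most, Kcnj12 among them.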

Other observations

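Among the 42 members under the minimum, 4 had groups that did not overlap: Kcns3, Kcnh1, Kcnk9 and Kcnv1. The share among all genes under the minimum was not counted, so this count is not a result about the members. These 4 genes were singled out after their values were seen and are given with no test. Kcns3, a silent subunit of Kv2 channels, was at 3.70, 4.73 and 3.34 normalized counts in control and at 10.3, 10.6 and 19.2 in Dnmt1 KO, the only one of them that was higher. Kcnh1, an ether-a-go-go channel, was at 8.64, 11.4 and 13.4 in control and 3.10, 3.87 and 8.14 in Dnmt1 KO. Kcnk9, an acid-sensitive leak channel, was at 9.88, 6.62 and 12.3 in control and 5.16, 5.81 and 3.70 in Dnmt1 KO. Kcnv1, another silent subunit, was at 9.88, 10.4 and 11.1 in control and 6.20, 9.68 and 7.40 in Dnmt1 KO. Gene bodies of the tested members were long, with a median of 56.1 kb beside 28.9 kb for tested protein-coding genes. The 5 higher members had a median of 222 kb (18.5 to 437 kb) and the 6 lower ones of 119 kb (51.2 to 564 kb), so the ranges overlapped.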
